A study of Mus musculus with 8 samples.

Results

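The insulin-like growth factor (IGF) system of the mouse hypothalamus was followed through 10 genes of the 55487 in the deposited count table. They were the rows whose Ensembl identifiers map to the ligand genes Igf1 and Igf2, the receptor genes Igf1r and Igf2r, and the binding protein genes Igfbp2, Igfbp3, Igfbp4, Igfbp5, Igfbp6 and Igfbp7. All 10 passed the filter on low counts, with 45 counts (Igf2) to 5094 counts (Igfbp5) per library. The rule goes by gene symbol, but the set was proposed with earlier results of these data known.

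IGF-1 and IGF-2 are small secreted proteins that resemble proinsulin. Both signal through the IGF-1 receptor, a tyrosine kinase that recruits insulin receptor substrate proteins and the PI3K and AKT kinases. The IGF-2 receptor carries mannose 6-phosphate-tagged proteins to lysosomes and removes IGF-2 from the cell surface. Binding proteins hold the ligands outside the cell, and proteases that cut the binding proteins release them. In the brain, Igf1 is made by neurons and by microglia under some conditions, Igf2 mainly by meninges, vessels and choroid plexus, and Igfbp2 by astrocytes and other glia.

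Hypothalami of C57BL/6J mice, with no genetic alteration given, were profiled by RNA-seq of mRNA. The hypoxia group had 4 mice, exposed to 7% oxygen for 2 hours in a hypoxic chamber. The normoxia group had 4 mice kept at 21% oxygen over the same 2 hours. The study asks how low oxygen alters the function of the glucocorticoid receptor. All mice had free access to food and water.

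Libraries held 16994473 to 21694383 counts. Levels are given as CPM, counts relative to the TMM-scaled library total, and changes as log2 fold changes of hypoxia relative to normoxia. A gene was called at a Benjamini-Hochberg adjusted p under 0.05 in edgeR's quasi-likelihood test over the 17047 genes tested, of which 156 were called higher and 210 lower. Scaled by library totals alone, 146 were higher and 342 lower. Hypothalamic marker genes were present in every library, for example Pmch at 160 to 374 CPM and Hcrt at 47.5 to 120 CPM. Normoxia replicate 2 stood apart. It had the lowest sum of 8 such markers, 338 CPM against 533 to 773 CPM elsewhere. Its sum of 8 cortex and hippocampus markers was 464 CPM, against 53.6 to 148 CPM in the other 7 libraries. Members whose value moved most with that library are given with and without it. In a piece of tissue, fewer cells of a type and less RNA per cell cannot be told apart.

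None of the 10 IGF genes was called in either direction after 2 hours. By edgeR, 0 were called higher and 0 lower, where 0.915% of all genes tested were called higher and 1.23% lower, 2.15% in all. At an unadjusted p under 0.05 there were 0 higher and 1 lower (Igfbp2), where 7.63% of all genes were higher and 11.7% lower, 19.3% in all. DESeq2 called 1, again Igfbp2, and called it lower, where over all genes it called 362 higher and 596 lower, more than edgeR. All 10 genes had a negative log2 change, with a median of −0.15, while 51.8% of all genes tested were negative with a median of −0.01. This common sign depended on single libraries for Igf2 and Igfbp4, as given with each. In none of the 10 did the hypoxia and normoxia libraries separate completely, which occurred in 5.69% of all genes with hypoxia higher and in 7.75% with hypoxia lower, 13.4% in all. What follows on the members is therefore mostly a record of levels, with intervals that bound the change.

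**Figure D1:**
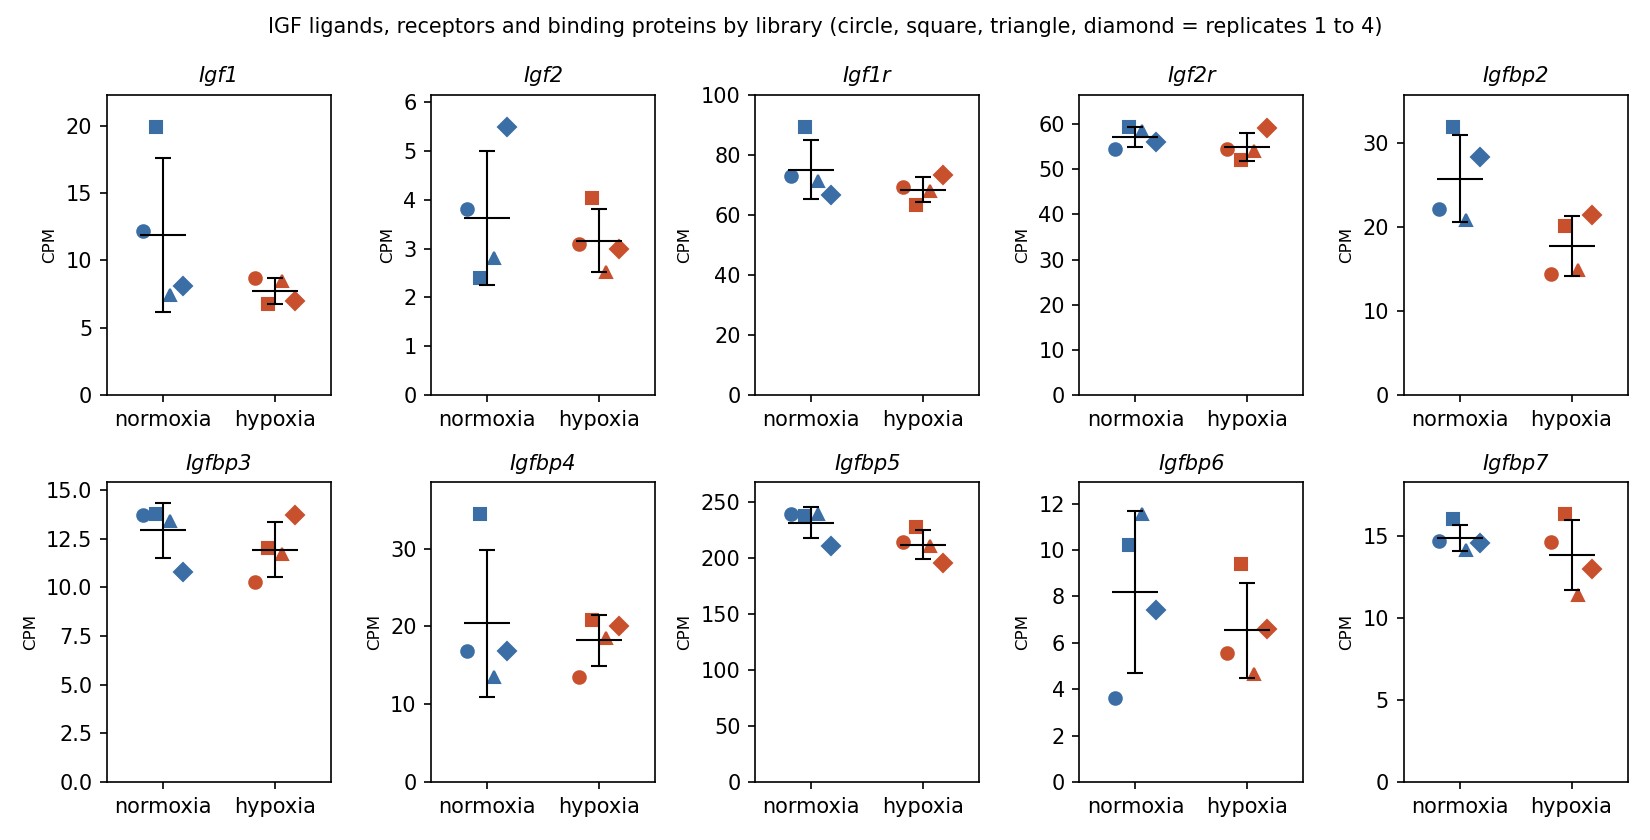
Each panel plots 1 gene, with CPM on the vertical axis from 0 and the 4 libraries of each group as points (blue normoxia, red hypoxia). Black bars are the mean and SD. The groups overlap in every panel, and Igfbp2 comes closest to separating, with 14.4 to 21.4 CPM in hypoxia and 20.8 to 31.9 CPM in normoxia.

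Igfbp2 encodes a binding protein that is secreted by glia and prefers IGF-2. It lies on chromosome 1 (72824503 to 72852474, plus strand, mm10), 5457 bases from Igfbp5 on the minus strand. Its levels were 14.4, 20.1, 14.9 and 21.4 CPM in hypoxia replicates 1 to 4, and 22.1, 31.9, 20.8 and 28.3 CPM in normoxia replicates 1 to 4. Of the 16 pairings of a hypoxia with a normoxia library, 15 had the lower value in hypoxia. The exception was hypoxia replicate 4, which lay just above normoxia replicate 3. The means were 17.7 ± 3.56 CPM in hypoxia and 25.8 ± 5.23 CPM in normoxia (SD, n = 4 each), a log2 change of −0.54 ± 0.17 (SE). The 95% interval of that change, −0.93 to −0.16, excluded 0, but the p of 0.0111 did not pass adjustment in edgeR's quasi-likelihood test (adjusted p = 0.132). DESeq2 gave −0.54 with an adjusted p of 0.0443. Without normoxia replicate 2 the edgeR value was −0.42 (adjusted p = 0.152). It was −0.53 (adjusted p = 0.0773) without that library and hypoxia replicate 4. With the replicate number as a block the edgeR value was −0.54 ± 0.08 (SE; adjusted p = 0.0808). The summed level of 10 astrocyte markers overlapped between the groups, at 3492 to 3628 CPM in hypoxia and 3353 to 3641 CPM in normoxia. Slc1a2 and Slc1a3 were its largest terms, with means of 1608 and 750 CPM in hypoxia. Of the 10 genes, 5 had a positive log2 change and 5 a negative one. The part of astrocytes or other cells in the Igfbp2 value was not tested.

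The 250 bases before 1 of the 2 RefSeq start sites of Igfbp2 are shown because this gene had the smallest p of the 10. The window of the other start site holds neither motif searched. The window shown spans chr1:72824230-72824479 (GRCm38.p6, plus strand). Capitals mark the letters ACGTG, 1 form of the core of the element bound by hypoxia-inducible factors, searched on both strands. Other forms of the core were not searched. A CACGTG holds the match on both strands, in overlapping positions.
Igfbp2: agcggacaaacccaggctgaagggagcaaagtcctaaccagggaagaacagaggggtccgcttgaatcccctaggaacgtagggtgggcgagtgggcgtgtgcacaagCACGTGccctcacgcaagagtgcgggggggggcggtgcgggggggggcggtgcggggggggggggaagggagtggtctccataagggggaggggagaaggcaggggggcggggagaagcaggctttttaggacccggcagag
Of all 32841 such windows in the RefSeq table, 16.6% held ACGTG. Among the 14 windows of the 10 IGF genes it was found in 4, those of Igfbp2, Igfbp7, Igf2r and Igf2. The match describes the letters and is not evidence of binding. AGAACA, the hexamer repeated in the glucocorticoid response element, was found in 2 of the 14 windows, of Igfbp2 and Igf2, against 16.1% of all windows.

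Igfbp5 was the most abundant member. It encodes the most conserved of the binding proteins, which also attaches to extracellular matrix. Its levels were 214, 228, 211 and 196 CPM in hypoxia replicates 1 to 4 and 239, 237, 239 and 211 CPM in normoxia replicates 1 to 4. Hypoxia was lower in 14 of 16 pairings, and normoxia replicate 4 was the lowest of the normoxia libraries. The log2 change was −0.13 ± 0.06 (SE; edgeR quasi-likelihood, adjusted p = 0.297). Its 95% interval ran from −16.8% to 0.838%.

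Igfbp3 encodes the main carrier of IGFs in blood. It lies on chromosome 11 (7206086 to 7213923, minus strand), 3539 bases from Igfbp1. It was at 10.3, 12.04, 11.7 and 13.7 CPM in hypoxia replicates 1 to 4. In normoxia it was at 13.7, 13.8, 13.4 and 10.8 CPM. Normoxia replicate 4 fell inside the hypoxia range, and the other normoxia libraries lay at its top. The log2 change was −0.11 ± 0.11 (SE; edgeR quasi-likelihood, adjusted p = 0.629), with a 95% interval of −0.37 to 0.14. Igfbp1, a binding protein gene that liver cells raise in fasting and low oxygen, had 0 to 2 counts in each library and was not tested.

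Igfbp4 encodes a binding protein that holds IGFs away from their receptor until it is cut. It was at 13.5, 20.8, 18.5 and 20.1 CPM in hypoxia replicates 1 to 4. Normoxia replicates 1, 3 and 4 were at 16.8, 13.6 and 16.8 CPM, and normoxia replicate 2 was at 34.5 CPM. The log2 change of −0.16 ± 0.27 (SE; edgeR quasi-likelihood, adjusted p = 0.785) changed sign without normoxia replicate 2, to 0.21 (adjusted p = 0.421). The high library is the one with the raised cortex and hippocampus markers. Their part in its Igfbp4 level was not tested.

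Igfbp6, whose product binds IGF-2 far better than IGF-1, varied most between libraries, by 3.19-fold from lowest to highest. It ranged from 4.64 to 9.38 CPM in hypoxia and from 3.62 to 11.5 CPM in normoxia, so the normoxia range held the whole hypoxia range. The log2 change was −0.32 ± 0.34 (SE; edgeR quasi-likelihood, adjusted p = 0.646), with a 95% interval of −1.08 to 0.44. It was −0.57 without normoxia replicate 1, −0.54 without hypoxia replicate 2, −0.19 without hypoxia replicate 3 or without normoxia replicate 2, and −0.11 without normoxia replicate 3. Igfbp7, whose product is deposited around blood vessels and binds IGFs weakly, was at 11.5 to 16.4 CPM in hypoxia and 14.2 to 16.1 CPM in normoxia. Its log2 change was −0.10 ± 0.11 (SE; adjusted p = 0.645), and −0.023 without hypoxia replicate 3, its lowest library. It shares 85 exon bases with Polr2b on the opposite strand, so its count is uncertain if strand was ignored in counting.

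Among the ligands, Igf1 (chromosome 10, 87858265 to 87937042, plus strand) had the largest log2 change of the 10 genes, and it rested on 1 library. Its levels were 8.66, 6.77, 8.46 and 6.99 CPM in hypoxia replicates 1 to 4 and 12.2, 19.9, 7.41 and 8.08 CPM in normoxia replicates 1 to 4. Normoxia replicates 3 and 4 lay inside the hypoxia range, and replicate 2 was far above it. The log2 change was −0.62 ± 0.29 (SE; edgeR quasi-likelihood, adjusted p = 0.275), and −0.25 (adjusted p = 0.424) without normoxia replicate 2. Microglial markers, 10 genes in sum, were at 328 to 366 CPM in hypoxia and 311 to 376 CPM in normoxia.

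Igf2 (chromosome 7, 142650766 to 142666816, minus strand) is an imprinted gene, transcribed from the paternal copy in most tissues but not in all. It had the fewest counts. Its levels were 3.09, 4.05, 2.51 and 2.995 CPM in hypoxia replicates 1 to 4 and 3.81, 2.39, 2.81 and 5.49 CPM in normoxia replicates 1 to 4. Hypoxia was the lower in 8 of 16 pairings, an even split. The log2 change was −0.21 ± 0.27 (SE; edgeR quasi-likelihood, adjusted p = 0.711) and changed sign without normoxia replicate 4, to 0.07 (adjusted p = 0.89). H19, the imprinted RNA next to it, had 4 to 13 counts per library. The antisense gene Igf2os, which shares 98 exon bases with Igf2, had 4 to 19. Igf2 also shares 3596 of its 5723 exon bases with the read-through gene Gm49394 on the same strand, which the table lists at 0 in all 8 libraries. The sources used here do not say how reads in shared exons were assigned.

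Taken as pairs, the libraries with the highest and the lowest Igf2 were also those with the highest and lowest sums of meningeal fibroblast markers. Within the lowest pair the order was reversed. The summed CPM of 12 such markers was 341 in normoxia replicate 4 and 304 in hypoxia replicate 2, the libraries with the highest Igf2. It was 212 in hypoxia replicate 3 and 213 in normoxia replicate 2, the libraries with the lowest. Between these the order differed: normoxia replicate 3 had a higher sum than normoxia replicate 1 (265 against 257) but less Igf2 (2.81 against 3.81 CPM). The summed CPM of 10 markers of vessel mural cells was likewise highest in hypoxia replicate 2 (360) and normoxia replicate 4 (358). It was lowest in hypoxia replicate 3 (277) and normoxia replicate 2 (295). By group the meningeal fibroblast sum ran from 212 to 304 CPM in hypoxia and from 213 to 341 CPM in normoxia, with no marker at 0. Its largest term was Pdgfra, with means of 95.6 CPM in hypoxia and 79.6 CPM in normoxia. Pdgfra was the only gene of that list with a positive log2 change, so the sum is not a measure of fibroblasts alone. Ttr, which marks choroid plexus, reached 19.6 CPM in normoxia replicate 4, against 0.649 to 7.15 CPM in the other libraries. The sum of 10 choroid plexus markers was also highest there (110 CPM) and lowest in normoxia replicate 2 (62.2 CPM). The same sum was 77.3 CPM in hypoxia replicate 2 and 94.1 CPM in hypoxia replicate 3, opposite to the order of Igf2 in these libraries. Prlr and Clic6 were its largest terms, with means of 39.4 and 29.9 CPM in hypoxia, where the sum averaged 87.3 CPM. Ttr had a mean of only 1.98 CPM there, and 7 of the 10 genes passed the filter on low counts. The sum thus mainly follows Prlr and Clic6, so it cannot set choroid plexus beside Igf2. The part of these cells in the Igf2 values was not tested.

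**Figure D2:**
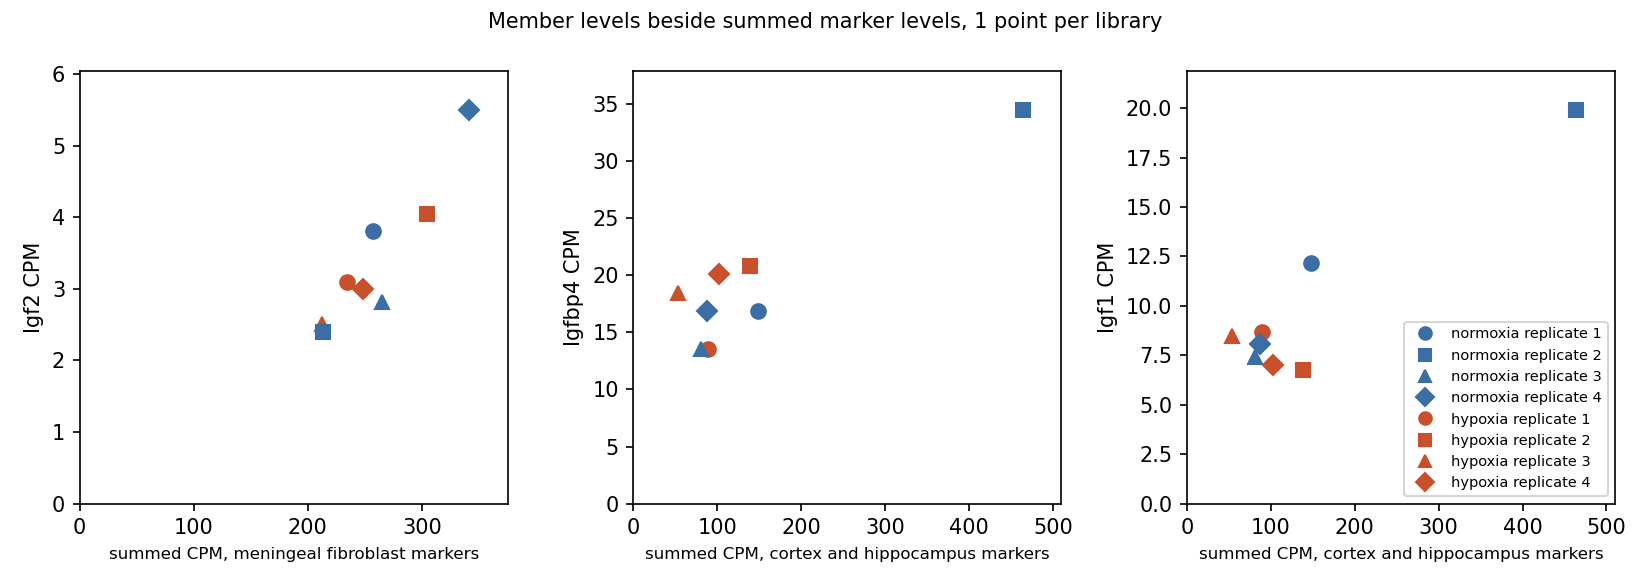
Member level (CPM, vertical axis) is plotted against the summed CPM of a marker list (horizontal axis), 1 point per library, blue for normoxia and red for hypoxia. Igf2 is highest where the meningeal fibroblast sum is highest (341 CPM), and Igfbp4 and Igf1 are highest in the library with 464 CPM of cortex and hippocampus markers.

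Of the receptor genes, Igf1r was at 69.4, 63.3, 68.0 and 73.4 CPM in hypoxia replicates 1 to 4 and 73.2, 89.4, 71.6 and 66.7 CPM in normoxia replicates 1 to 4, with normoxia replicate 2 above the rest. Its log2 change was −0.13 ± 0.09 (SE; edgeR quasi-likelihood, adjusted p = 0.446), and the 95% interval ran from −20.6% to 4.72%. Without normoxia replicate 2 the log2 change was −0.034 (adjusted p = 0.763). Igf2r was at 52.1 to 59.3 CPM in hypoxia and 54.5 to 59.3 CPM in normoxia, a spread of 1.14-fold over all 8 libraries. Its log2 change was −0.05 ± 0.05 (SE; adjusted p = 0.618), with an interval of −11.5% to 4.66%, the narrowest of the 10, and it was −0.031 (adjusted p = 0.779) without normoxia replicate 2. Airn, the imprinted antisense RNA that silences the paternal Igf2r in most tissues, had 24 to 70 counts per library, overlaps none of its exons, and had a log2 change of −0.37 (adjusted p = 0.55). Insr, the insulin receptor gene, was at 72.8 ± 3.45 CPM in hypoxia and 79.1 ± 6.37 CPM in normoxia (SD, n = 4 each; edgeR quasi-likelihood, log2 −0.12, adjusted p = 0.337).

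**Figure D3:**
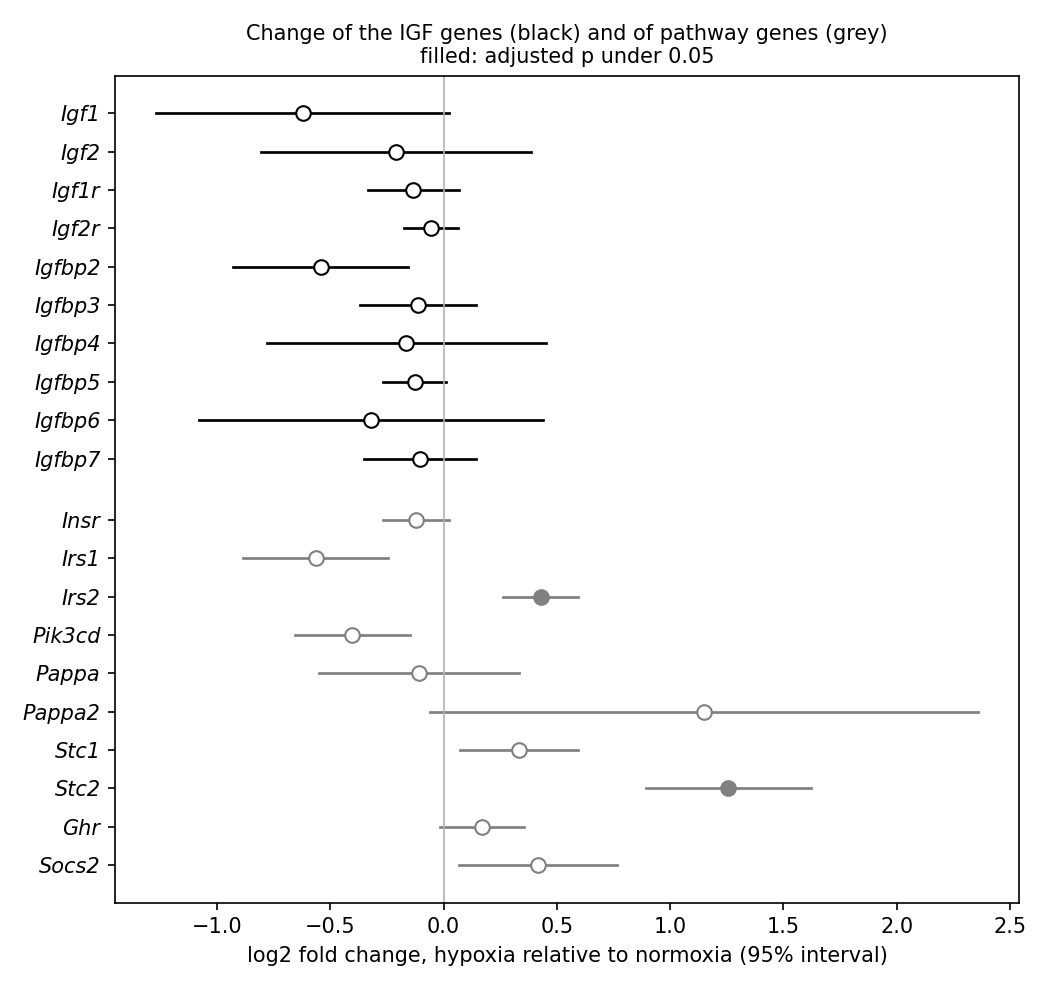
Points are log2 fold changes of hypoxia relative to normoxia with 95% intervals, black for the 10 IGF genes and grey for genes of the pathway, filled where the adjusted p was under 0.05. All 10 black points are open and left of 0, and the filled points are Irs2 (0.43) and Stc2 (1.26).

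Per length of exon, binding proteins had the highest mean levels, and the receptors lay among the lower binding proteins. Averaged over the 8 libraries, Igfbp5 stood at 37.0 CPM per kb of exon, 3.11-fold above the next. Igfbp7 at 11.9 and Igfbp2 at 11.8 CPM per kb could not be ranked, since Igfbp7 was the higher in 5 of 8 libraries. Igfbp6 followed at 6.63 and Igf2r at 6.02 CPM per kb, each the higher in 4 of 8. Igfbp4 at 4.38, Igf1r at 4.28 and Igfbp3 at 3.98 CPM per kb were likewise not separated from their neighbours, while Igf2r exceeded Igfbp4 in 7 of 8. Igf1, at 0.99 CPM per kb, was below Igfbp3 in all 8. Igf2 was last at 0.593 CPM per kb. Its whole count divided by only the 2127 exon bases not shared with Gm49394 came to 1.6 CPM per kb, above Igf1 in 7 of 8 libraries. That figure holds only if no reads in the shared bases were counted. The order of the ligands therefore depends on how shared exons were counted.

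Summed by class, transcripts of the 6 binding proteins reached 64.8 to 79.4 CPM per kb in hypoxia and 75.5 to 91.5 in normoxia. The receptors summed to 9.37 to 10.7 and 10.0 to 11.7 CPM per kb. The ligands summed to 1.23 to 1.41 and 1.24 to 2.43 CPM per kb. Igfbp5 made up 46.7 to 54.2% of the binding protein sum in hypoxia and 43.2 to 52.8% in normoxia. These ranges overlapped between the groups for every class.

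**Figure D4:**
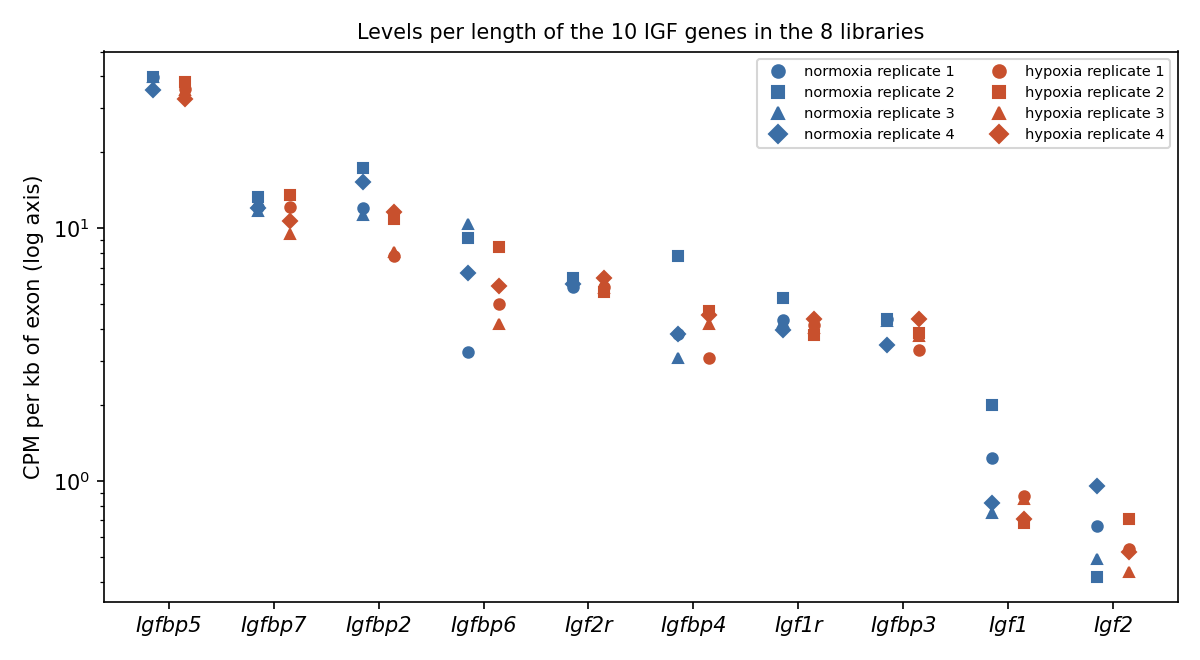
CPM per kb of exon on a log axis is plotted for each gene in order of its mean, 1 point per library, blue for normoxia and red for hypoxia. Igfbp5 lies above all others at 32.6 to 39.9 CPM per kb, and the ligands lie lowest.

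Genes that control how much IGF is free were taken from a list of 8 proteases and stanniocalcins. Of 7 tested, 1 was called higher and 0 lower (edgeR), where 0.915% of all genes tested were called higher and 1.23% lower. The median log2 change was 0.17 against −0.01 for all genes tested. Leaving out normoxia replicate 2 gave 2 called higher, beside 329 over all genes. The called gene was Stc2, which encodes stanniocalcin-2, an inhibitor of the proteases PAPP-A and PAPP-A2 that cut IGF binding proteins. It stood at 6.29, 5.12, 7.34 and 4.99 CPM in hypoxia replicates 1 to 4 and at 2.44, 2.87, 2.30 and 2.32 CPM in normoxia replicates 1 to 4. Every hypoxia library was above every normoxia library, which occurred in 5.69% of all genes tested. Stc2 rose by a log2 of 1.26 ± 0.16 (SE; edgeR quasi-likelihood, adjusted p = 0.0113). It was called in 5 of 8 fits that left out 1 library, and lost without hypoxia replicate 1 (adjusted p = 0.0571), normoxia replicate 3 (0.0524) and normoxia replicate 4 (0.0509). With the replicate number as a block the adjusted p was 0.0795. Its relative Stc1 had a log2 change of 0.33 (adjusted p = 0.161). Pappa, which encodes PAPP-A, had −0.11 (adjusted p = 0.806). Pappa2 had a log2 change of 1.15 (adjusted p = 0.279), and 0.24 (adjusted p = 0.613) without hypoxia replicate 2, which was at 9.49 CPM, against 1.80 to 2.51 CPM in the other hypoxia libraries and 1.38 to 2.07 CPM in normoxia.

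Downstream of the receptor, 1 of 15 adaptor genes was called higher and 0 lower, with a median log2 change of −0.05. Of all genes tested, 0.915% were called higher and 1.23% lower. Irs2, the insulin receptor substrate that carries much of the insulin and IGF signal in hypothalamic neurons, was at 126, 128, 132 and 110 CPM in hypoxia replicates 1 to 4. It was at 103, 86.8, 90.7 and 87.6 CPM in normoxia replicates 1 to 4, so the groups did not overlap. Such separation with hypoxia higher occurred in 5.69% of all genes tested. Irs2 rose by a log2 of 0.43 ± 0.07 (SE; edgeR quasi-likelihood, adjusted p = 0.0284). It was called in 3 of 8 fits that left out 1 library, with adjusted p up to 0.12 (without hypoxia replicate 3). Its call was lost on leaving out any of hypoxia replicates 1, 2 and 3 and of normoxia replicates 3 and 4. With the replicate block the adjusted p was 0.0917.

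Irs1, the paralogue of Irs2, had a log2 change in the other direction. It was at 18.2, 20.4, 18.6 and 22.2 CPM in hypoxia replicates 1 to 4 and at 27.6, 38.6, 27.5 and 23.7 CPM in normoxia replicates 1 to 4. The groups again did not overlap, which occurred with hypoxia lower in 7.75% of all genes tested. The log2 change was −0.56 ± 0.14 (SE; edgeR quasi-likelihood, adjusted p = 0.0765). DESeq2 called it (adjusted p = 0.00823), and so did edgeR without normoxia replicate 2 (−0.40, adjusted p = 0.0404). Irs1 was picked after its values were seen. It shares 2822 exon bases with Gm9747, and Irs2 shares 162 with 9530052E02Rik, both on the opposite strand, so these counts are uncertain if strand was ignored.

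The windows before the start sites of Irs2 (chr8:11008930-11009179, GRCm38.p6, minus strand) and Irs1 (chr1:82291440-82291689, minus strand) are set side by side because the paralogues had log2 changes of opposite sign. Capitals again mark ACGTG on either strand, here 1 CACGTG in each.
Irs2: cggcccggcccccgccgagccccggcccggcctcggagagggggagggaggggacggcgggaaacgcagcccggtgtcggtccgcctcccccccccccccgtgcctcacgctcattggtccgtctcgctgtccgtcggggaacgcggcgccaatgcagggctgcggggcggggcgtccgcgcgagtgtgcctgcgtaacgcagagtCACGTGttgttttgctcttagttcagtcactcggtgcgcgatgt
Irs1: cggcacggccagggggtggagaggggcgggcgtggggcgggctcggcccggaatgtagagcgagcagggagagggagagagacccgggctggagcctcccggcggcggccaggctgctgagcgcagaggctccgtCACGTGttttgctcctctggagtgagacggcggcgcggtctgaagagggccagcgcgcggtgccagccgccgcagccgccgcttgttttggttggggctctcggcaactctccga
CACGTG begins 44 bases before the start in Irs2 and 115 bases before it in Irs1. The window of Stc2, the called gene with the smaller p, holds 0 matches to ACGTG and is not shown. As only this form was searched, the window may hold another form of the core. The share of all windows with the motif is 16.6%, as given above.

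The PI3K and AKT genes had 0 of 19 called by edgeR in either direction, with a median log2 change of −0.02. At an unadjusted p under 0.05 there were 5, beside 19.3% of all genes. DESeq2 called 1 higher and 1 lower, beside 362 higher and 596 lower over all genes. Without normoxia replicate 2, edgeR called 2 higher, beside 329 over all genes. The smallest p was that of Pik3cd, which encodes a catalytic PI3K subunit of immune cells, at 18.3 ± 2.91 CPM in hypoxia and 24.2 ± 2.10 CPM in normoxia (SD, n = 4 each; edgeR quasi-likelihood, log2 −0.40, adjusted p = 0.0984). Pik3cd was the gene that DESeq2 called lower (adjusted p = 0.0362). Its groups did not overlap, which occurred with hypoxia lower in 7.75% of all genes tested. In edgeR it was called in 0 of 8 fits that left out 1 library. Of the AKT kinase genes, Akt1 had a log2 change of 0.07 and Akt2 one of −0.19 (edgeR, adjusted p = 0.341 and 0.448).

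In the growth hormone axis, which drives Igf1 in liver, 0 of 9 tested genes were called by edgeR and 3 had an unadjusted p under 0.05, beside 19.3% of all genes. DESeq2 also called 0. Of the 9, 8 had a positive log2 change. Socs2, a feedback inhibitor of growth hormone signalling, was at 17.7 ± 1.58 CPM in hypoxia and 13.2 ± 3.17 CPM in normoxia (SD, n = 4 each; edgeR quasi-likelihood, log2 0.42, adjusted p = 0.183). It was called without normoxia replicate 2 (0.59, adjusted p = 0.025). Ghr, the growth hormone receptor gene, had a log2 change of 0.17 (adjusted p = 0.297).

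Of the other IGF family genes, 5 of 9 were tested, and edgeR and DESeq2 called 0, with 0 at an unadjusted p under 0.05. Igfbpl1, which encodes a binding protein-like product, had 1.08 to 2.03 CPM in 7 libraries but 7.82 CPM in normoxia replicate 2. Of the imprinted neighbours and RNA regulators, 4 of 8 were tested and 0 called by either tool, with 0 at an unadjusted p under 0.05. The smallest p was that of Plagl1, an imprinted zinc finger gene, with a log2 change of 0.15 (adjusted p = 0.46).

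Of 116 marker genes of cell types and regions tested, 6 (5.17%) were called, beside 2.15% of all genes. Slc2a1 (log2 0.70, adjusted p = 0.0293), the glucose transporter of brain endothelium, Kcnj8 (0.98, adjusted p = 0.0371) of pericytes, Gjb6 (0.34, adjusted p = 0.0416) of astrocytes and Pdgfra (0.26, adjusted p = 0.0462), from the meningeal fibroblast list, rose. Slco1a4 (−0.48, adjusted p = 0.0369), also endothelial, and Neurod1 (−1.46, adjusted p = 0.0148), of the cortex and hippocampus list, fell. Neurod1 was called in 5 of 8 fits that left out 1 library, and each of the others in 2 of 8. With the replicate block only Slc2a1 was called, and with library totals alone Pdgfra was not (adjusted p = 0.0612). The other 11 meningeal fibroblast genes all had a negative log2 change (list median −0.32). Of striatal markers, 8 of 8 had a positive log2 change (median 0.41), and it was negative in 7 of 8 thalamic markers (median −0.33) and in 6 of 7 cortex and hippocampus markers (median −0.77). Single libraries weighed on these medians. The thalamic sum was 954 CPM in normoxia replicate 1, against 559 to 726 CPM elsewhere. The cortex and hippocampus sum was 464 CPM in normoxia replicate 2, as given above. Striatal sums overlapped, at 673 to 1087 CPM in hypoxia and 388 to 1010 CPM in normoxia. The part of these cells in the IGF values was not tested.

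For each member the genes with the most similar pattern were sought among 13649 others, by Pearson's r of log2 CPM over the 8 libraries. The closest were chosen for their r, so the values are a description. Igf2 was most like Cyp26b1, which encodes a retinoic acid-degrading enzyme (r = 0.99, and 0.99 without normoxia replicate 2), and Rras (0.961). Igf1 was most like Cacng7 and Grip2 (0.988 and 0.977), which encode proteins of the glutamate synapse. Igf1r was most like Zc3h13 (0.992) and Csrnp2, Igf2r like Zc3h12c (0.948) and Ikzf4. Among the binding proteins, Igfbp2 paired with Zfp668 (0.974) and Ibtk, Igfbp3 with Lekr1 (0.973) and Trmt10c, Igfbp4 with Shroom2 (0.975) and Tiam2. Igfbp5 paired with Ppp1r18 (0.94) and Tsfm, Igfbp6 with Nek9 (0.941), and Igfbp7 with Ano1 (0.972) and Rnf139. No member was among the closest genes of another. None of the genes named here as most similar was called.

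**Figure D5:**
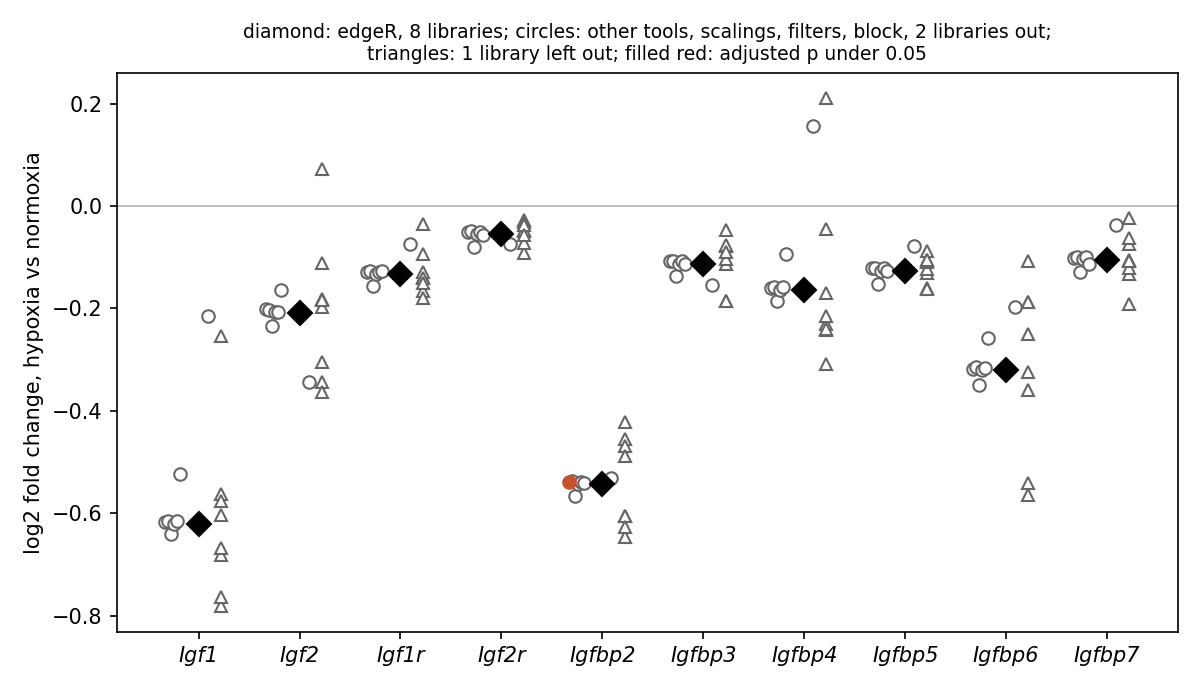
The log2 fold change of each member is plotted under every setting tried: the diamond is edgeR on 8 libraries, circles are other tools, scalings, filters, the replicate block and the fit without 2 libraries, and triangles leave out 1 library. Only the DESeq2 value of Igfbp2 (−0.54) is filled as called, and Igf2 and Igfbp4 are the genes with points above 0.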

How the data were processed

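The deposited table holds the authors' raw read counts for each Ensembl gene, with 8 library columns. Per the submitters' processing notes, featureCounts, DESeq2, SAMtools, Trimmomatic, HISAT and HISAT2 (2.0.4) were used, with build mm10 (annotation release and strand setting: not given in the sources used here). The library kit was a stranded mRNA kit, per the labels' protocols. Symbols were found for 55141 of 55487 genes. Positions, overlaps and exon lengths come from GENCODE M21 (GRCm38).

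The 8 columns were tested with edgeR (4.0.16, under R 4.3.3). Low genes were removed with filterByExpr (minimum count 10, total 15), TMM factors were applied, and the quasi-likelihood F test used group as its only term, with Benjamini-Hochberg adjustment over all genes. Intervals of a log2 change cover 95% for a single gene and are not adjusted. The test was checked on simulated counts. Alternatives were DESeq2 (1.42.0), other scalings and filters, the replicate number as a block, and libraries left out.

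The members and lists were chosen with earlier results of these data known, and the hypothalamic markers, Irs1 and Pappa2 were added after the values were seen. The text names the 10 members, the called genes of each list or else the one with the smallest p, genes overlapping members, and the 2 genes most like each member (for Igfbp6, 1 of them is not reported here). Gm and Rik models and pseudogenes were left out of that last search, as were genes under a mean of 1 CPM. Further genes are named for their role (Stc1, Pappa, Akt1, Akt2, Ghr, H19, Igfbp1) or for 1 high library (Igfbpl1), after their values were seen. Promoter windows are from RefSeq (GRCm38.p6), trimmed to the 250 bases before the start site. Counts of libraries within a group differed by more than sampling noise. The design text describes the 4 libraries of each group as biological replicates, and p-values reflect variation among these 8 libraries. The number of counts per gene limits the precision.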

Additional observations from a re-analysis of the deposited data

Results flagged for a closer look

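Of 20 checks (10 genes in each of 2 groups), 3 had a library whose gap to its neighbour exceeded Dixon's 95% value, where chance gives about 1 in 20. Igfbp4 in normoxia replicate 2 was at 34.5 CPM, against 13.6 to 16.8 CPM in the rest of its group. Igfbp3 in normoxia replicate 4 was at 10.8 CPM, against 13.4 to 13.8 CPM. Igfbp5 in the same library was at 211 CPM, against 237 to 239 CPM.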

How the results depend on the processing

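Over 15 alternatives, Igf1, Igf1r, Igf2r, Igfbp2, Igfbp3, Igfbp5, Igfbp6 and Igfbp7 kept a negative log2 change. Leaving out 1 library moved Igf2 between −0.36 and 0.073, with the sign changed without normoxia replicate 4, and Igfbp4 between −0.31 and 0.21, with the sign changed without normoxia replicate 2. Igfbp4 also changed sign without that library and hypoxia replicate 4 together (0.16). The ranges on leaving out 1 library were −0.78 to −0.25 for Igf1, −0.18 to −0.034 for Igf1r, −0.092 to −0.028 for Igf2r and −0.65 to −0.42 for Igfbp2. They were −0.19 to −0.048 for Igfbp3, −0.16 to −0.088 for Igfbp5, −0.57 to −0.11 for Igfbp6 and −0.19 to −0.023 for Igfbp7. The number of members called lower was 1 with DESeq2 (Igfbp2) and 0 in every other setting, and none was called higher. Over all genes, DESeq2 called 362 higher and 596 lower. Scaling by library totals alone gave 342 lower. Without normoxia replicate 2 and hypoxia replicate 4 there were 456 higher and 739 lower. Leaving out 1 library at a time gave 24 to 329 higher and 2 to 457 lower, while members called higher and lower each stayed at 0. The replicate block gave 20 higher and 1 lower. Same-numbered libraries did not deviate together (correlations of deviations −0.11 to 0.04), so the numbers were not taken to pair mice. The cause of these shifts was not tested. Alternatives for genes outside the 10 were added after seeing the data. Igf2, with 45 to 121 counts per library, had the least depth, and Igf1, Igf2, Igfbp4 and Igfbp6 the widest intervals.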
